A study of Homo sapiens with 6 samples.

Results

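The comparison described here is between culture replicates rather than between genotypes. LNCaP cells, which derive from a human prostate cancer and form an established line of luminal, androgen-responsive type, had been made into a stable line with the empty retroviral vector (pBabe-vector) and a stable line that overexpresses GNA13 from the same vector (pBabe-GNA13). The 2 libraries labelled biological replicate 3, 1 of each line, were set against the 2 libraries labelled replicate 2, so that 4 of the 6 libraries of the series were compared. The remaining 2 libraries, 1 of each line, carry the tag std in the table and are used as a description and, in alternative fits given in the closing section, for the spread between libraries. All 17297 genes of the table were read, and the 14012 genes with a mean of at least 1 CPM (counts scaled to the size of the library) over the 4 libraries were tested. Cells of both lines were grown on plates for 48 h in RPMI with serum and antibiotics. Each line is 1 stable population, so that the replicates are cultures of the same 2 lines. The labels give all 6 cultures the same seeding number and the same confluency at harvest, with no value for a single culture. What differed between the cultures labelled 2 and 3, such as day or passage, was not found in the sources used here and cannot be told apart.

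Cultured cells adjust a few large gene programmes to their growth state. Genes for DNA replication are switched on by E2F factors before S phase, and genes for mitosis follow through the DREAM and B-MYB complexes. ATF4 raises genes for amino acid transport and synthesis when amino acids are scarce or the endoplasmic reticulum is stressed, hypoxia-inducible factors raise genes for glycolysis and mitophagy when oxygen is low, and BMP signals raise the ID genes, which encode inhibitors of basic helix-loop-helix factors. In LNCaP cells androgen drives the secretory luminal genes, such as those for the kallikreins. These are statements of background and no cause of the values given here.

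The libraries held between 33002160 and 35152588 counts, and 1 read equalled 0.0284 to 0.0303 CPM. These depths differed by little, and the TMM factors lay between 0.990 and 1.02. GNA13, the gene that defines the lines, was at 67.6 and 64.1 CPM in replicates 2 and 3 of pBabe-vector. It was at 875 and 736 CPM in the same replicates of pBabe-GNA13, so that each library matched the line in its label. The replicate number in the label is not checked by this. The difference of GNA13 between replicates was small (log2 difference −0.17 ± 0.06, SE, edgeR adjusted p = 0.0462). It was −0.05 without replicate 2 of pBabe-GNA13 and −0.26 without replicate 2 of pBabe-vector. Among the 12 luminal markers, all were above 1 CPM. The homeobox gene HOXB13 was at 501 to 581 CPM and the luminal keratin gene KRT8 at 259 to 324 CPM. The immune markers had 1 member of 10 in the table, CD14, at no more than 7 counts in any of the 4 libraries. Of the 6 endothelial markers 2 were in the table, and of these VWF was above 1 CPM. VWF, which encodes von Willebrand factor, fell from 20.1 to 6.42 CPM in pBabe-vector and from 30.1 to 14.4 CPM in pBabe-GNA13 (−1.32 ± 0.13, edgeR adjusted p = 4.34e-05). The endothelial sum moved with it, from 21.05 to 6.92 CPM and from 31.35 to 14.9 CPM, and its part in the results below was not tested. Of the 11 neuroendocrine markers 5 were in the table and 3 were above 1 CPM, with summed levels of 136 and 145 CPM in replicates 2 and 3 of pBabe-vector and of 178 and 173 CPM in those of pBabe-GNA13.

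Transcripts of other cell types set the replicates apart before any comparison was made, more so in pBabe-GNA13 than in pBabe-vector. The genes HBB and HBA2 encode haemoglobin chains of red cells, and HBB had 0 counts in both replicate 2 libraries, 99 counts in replicate 3 of pBabe-vector and 1152 counts in replicate 3 of pBabe-GNA13. Against a floor of 3 counts per library, this was at least 35.2-fold higher in pBabe-vector and at least 374-fold higher in pBabe-GNA13. TRBC2, a constant region of the T cell receptor beta chain, had 0 counts in both replicate 2 libraries and in replicate 3 of pBabe-vector, and 1322 counts in replicate 3 of pBabe-GNA13. KRT5, a keratin of basal epithelium, had 0, 19, 0 and 128 counts in the order pBabe-vector 2, 3 and pBabe-GNA13 2, 3. In all, 31 genes had at most 3 counts in both replicate 2 libraries and 20 or more in a replicate 3 library. The opposite was seen for 4 genes (ANGPTL2, GIPC3, EFCAB4B and RP11-122G18.12). Of the 31 genes, 14 also had at most 3 counts in replicate 3 of pBabe-vector. For these 14, replicate 3 of pBabe-GNA13 was the only library of the 4 above the floor. The 31 genes made up 0.0159% of the counts of replicate 3 of pBabe-GNA13 and 0.00122% of those of pBabe-vector. The summed level of the erythroid and hepatic markers was 0.118 and 0.147 CPM in replicate 2 and 5.55 and 51.3 CPM in replicate 3 (pBabe-vector and pBabe-GNA13). For the basal markers the sums were 11.8 and 14.9 CPM in replicate 2 and 14.6 and 21.1 CPM in replicate 3, with KRT15 at 0 in all 4 libraries. The fibroblast markers summed to 24.1 and 18.0 CPM in replicate 2 and to 12.8 and 21.2 CPM in replicate 3. The part of these transcripts in the results below was not tested. Only 8 of the 31 genes were among the genes tested. A count of calls made without such genes, given below, leaves out their own calls only. The genes in this paragraph that are no cell type markers were chosen after their values were seen, and the floors cover counting error only.

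**Figure D1:**
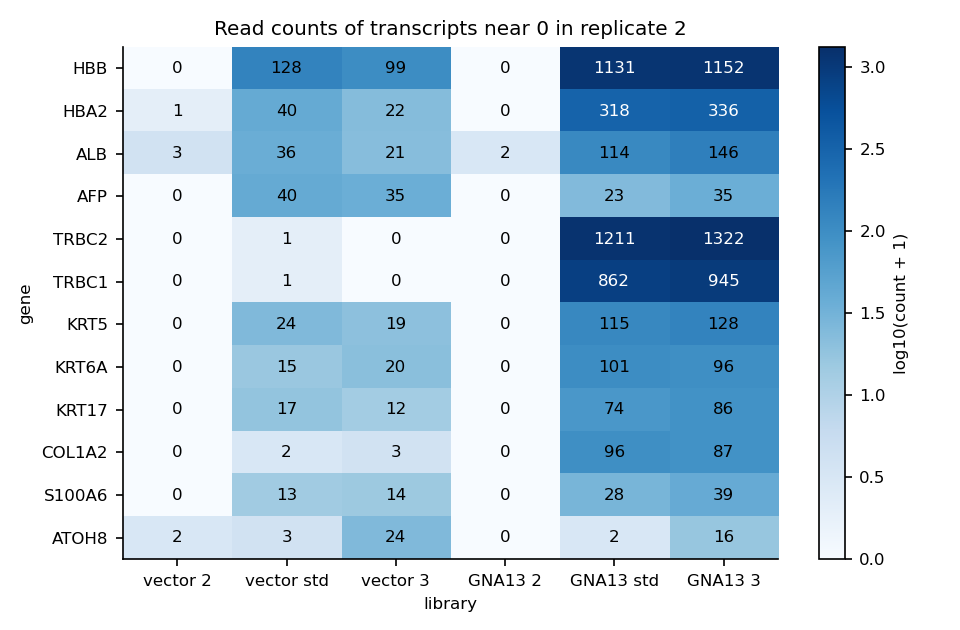
Read counts (numbers in the cells, colour on a log10 scale of count + 1) of 12 transcripts in the 6 libraries, chosen after their values were seen. Both replicate 2 libraries hold between 0 and 3 counts of each, while replicate 3 of pBabe-GNA13 holds up to 1322 counts and the std library of the same line up to 1211.

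Replicate 3 differed from replicate 2 in 6996 of 14012 genes tested (49.9%) at an adjusted p under 0.05 (edgeR quasi-likelihood test with the line as a covariate, Benjamini-Hochberg adjustment). Of these, 3547 (25.3% of genes tested) were higher and 3449 (24.6%) were lower in replicate 3, and 7855 genes had an unadjusted p under 0.05. Most calls were small. The log2 difference was under 0.5 in size for 4036 of the called genes (57.7%), and it reached 1 for 293 higher and 448 lower genes. Without the genes near 0 in 1 replicate, 6988 calls were counted, which takes away only the calls of those genes. The same fit gave 2185 genes that differed between pBabe-GNA13 and pBabe-vector (15.6% of genes tested), and the SD over genes of the log2 difference was 0.55 between replicates and 0.36 between lines. On the first principal component, which held 67.6% of the variance, both replicate 2 libraries scored −27.1 and −32.6 and both replicate 3 libraries 32.0 and 27.7. The second component, with 25.5%, separated the lines. Each gene had 1 degree of freedom for its error before moderation across genes, and the replicates are 2 libraries a side. An exact permutation test of a single gene that ignores the line could not go below p = 0.33. One that swaps labels only within a line has a still higher limit. The calls therefore lean on the spread shared across genes. In bulk RNA, fewer cells in a state and less RNA per cell cannot be told apart.

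The difference mostly ran in the same direction in both lines, whose libraries are separate. Across the 14012 genes, the difference within pBabe-vector and the difference within pBabe-GNA13 had a Pearson r of 0.81, given as a description because genes are not independent replicates, and 82.9% of genes had the same sign. The error of the fit is the disagreement between the lines, so that genes moving in opposite directions could hardly be called. With that limit, 6991 of the called genes had the same sign in both lines. The exceptions were UAP1L1, at 57.4 and 57.7 CPM in replicates 2 and 3 of pBabe-vector and at 79.6 and 51.5 CPM in those of pBabe-GNA13, and 4 T cell receptor genes (TRBC1, TRBC2, TRBJ2-1 and TRBJ2-3), which had no count in either pBabe-vector library. These 5 genes were chosen after their values were seen.

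Among called genes that averaged 10 CPM or more and moved alike in both lines, the largest rises were those of the ID genes, whose products bind basic helix-loop-helix factors and keep them from DNA. ID1 (chromosome 20, 31605283 to 31606515, GRCh38) was at 1.67 and 55.7 CPM in replicates 2 and 3 of pBabe-vector and at 1.04 and 26.8 CPM in those of pBabe-GNA13, a log2 difference of 4.91 ± 0.13 (SE, edgeR adjusted p = 5.52e-08). ID3 (chromosome 1, 23557926 to 23559501) went from 3.77 to 59.7 CPM in pBabe-vector and from 2.87 to 53.2 CPM in pBabe-GNA13 (4.09 ± 0.10, edgeR adjusted p = 5.52e-08). ID2 went from 4.69 to 16.4 CPM and from 5.10 to 16.5 CPM (1.75 ± 0.12, edgeR adjusted p = 4.15e-06). In each of the 3 genes both replicate 3 libraries lay far above both replicate 2 libraries, which their choice by the size of the rise favours. SMAD6, an inhibitor of BMP signalling that BMP signals themselves raise, was chosen after its values were seen and went from 13.9 to 38.8 CPM in pBabe-vector and from 12.3 to 29.0 CPM in pBabe-GNA13 (1.36 ± 0.09, edgeR adjusted p = 3.95e-06). The ID genes and SMAD6 belong to the list of secreted matrix and TGF-beta family response genes. Of its 22 members tested 8 rose, 9 fell and 5 were not called, against 25.3% and 24.6% over all genes tested. Other signalling genes of the list, also named after their values were seen, did not move with SMAD6. SMAD7 and SKIL were not called (log2 differences 0.25 and 0.07), and BMPR1B, PMEPA1 and SMAD3 fell (−0.43, −0.40 and −0.51). A part of BMP signals was not tested. The list had a median log2 difference of −0.31, against −0.00 over all genes tested, and its members ran from −2.44 to 4.91. This median rests on single libraries, at −0.16 within pBabe-vector and 0.01 within pBabe-GNA13, and at −0.06 without replicate 2 of pBabe-vector, −0.03 without its replicate 3 and −0.18 without replicate 2 of pBabe-GNA13. THBS1, which encodes the matrix protein thrombospondin 1, rose from 85.8 to 194 CPM in pBabe-vector and from 49.3 to 104 CPM in pBabe-GNA13 (1.13 ± 0.06, edgeR adjusted p = 1.07e-06).

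The other leading rises were DDIAS, which protects cells from apoptosis after DNA damage, E2F2, an activating E2F factor, and DNAH8, an axonemal dynein chain. DDIAS went from 19.6 to 64.0 CPM in pBabe-vector and from 15.9 to 52.3 CPM in pBabe-GNA13 (log2 difference 1.72 ± 0.07, edgeR adjusted p = 5.42e-07). E2F2 went from 9.32 to 27.5 CPM and from 9.45 to 31.4 CPM (1.65 ± 0.10, edgeR adjusted p = 1.69e-06). DNAH8 went from 5.21 to 18.6 CPM and from 6.38 to 16.95 CPM (1.62 ± 0.13, edgeR adjusted p = 1.24e-05). The replicates did not overlap in any of them, which largely follows from their choice by the size of the rise.

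NDUFA4L2, ANGPT2, GDF15, TSC22D3 and C2orf72 were among the 6 genes with the largest falls by the same limits of level and direction. NDUFA4L2 (chromosome 12, 57234903 to 57240715), a hypoxia-induced relative of a respiratory chain subunit, was at 54.8 and 2.84 CPM in replicates 2 and 3 of pBabe-vector and at 72.4 and 2.61 CPM in those of pBabe-GNA13 (log2 difference −4.54 ± 0.12, edgeR adjusted p = 5.52e-08). ANGPT2, an angiopoietin, went from 44.1 to 7.37 CPM and from 51.5 to 1.55 CPM (−3.50 ± 0.37, edgeR adjusted p = 5.46e-05), and its fall within the lines was −2.57 in pBabe-vector and −5.01 in pBabe-GNA13. GDF15 (chromosome 19, 18374731 to 18389176), a secreted stress hormone, went from 1492 to 228 CPM and from 1879 to 228 CPM (−2.88 ± 0.08, edgeR adjusted p = 1.13e-07). Both replicate 3 libraries held the same low level of GDF15, whichever line they came from. TSC22D3, a glucocorticoid-induced leucine zipper gene, fell from 155 to 22.4 CPM and from 91.4 to 22.1 CPM (−2.43 ± 0.14, edgeR adjusted p = 1.45e-06). C2orf72, an open reading frame of unassigned role, fell from 12.5 to 2.97 CPM and from 37.6 to 8.68 CPM (−2.10 ± 0.11, edgeR adjusted p = 9.04e-07), and its level also differed between the lines in both replicates.

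**Figure D2:**
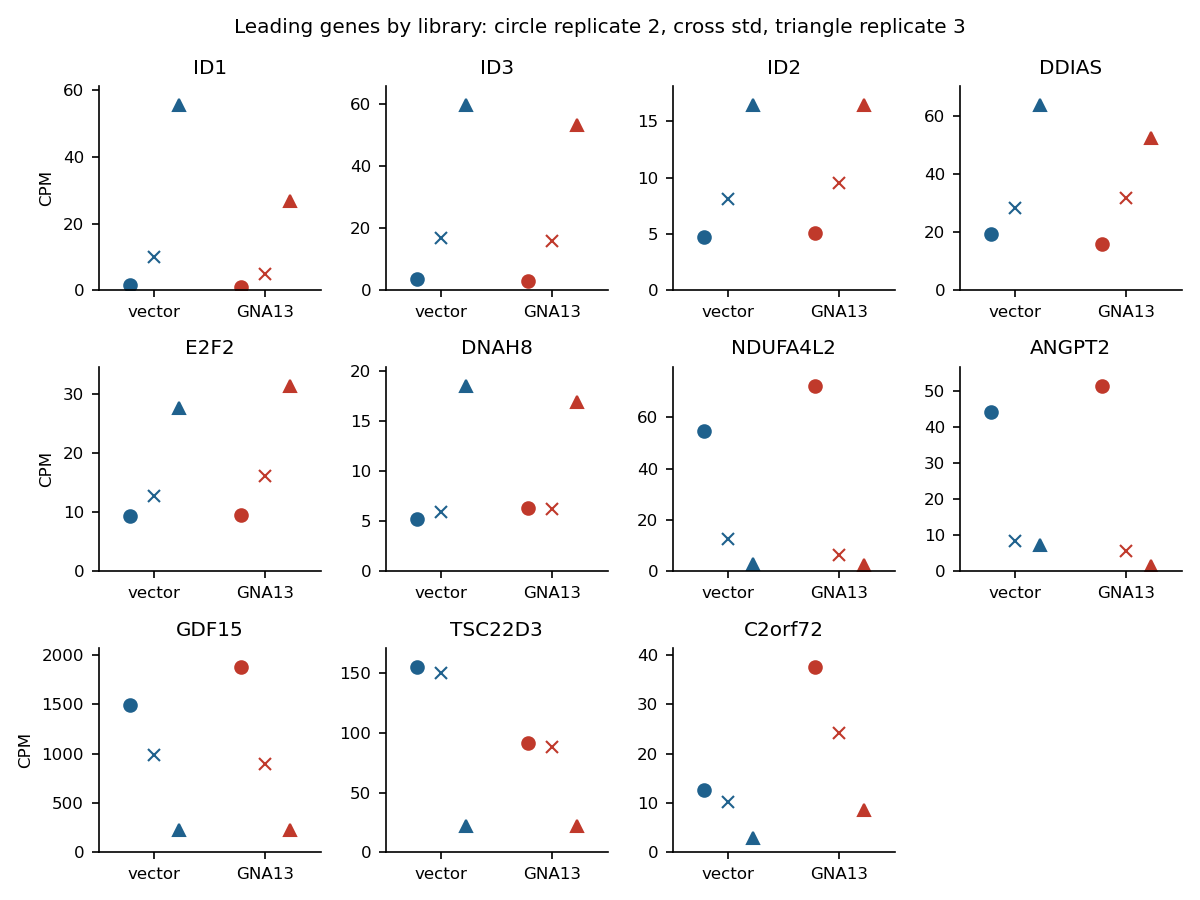
CPM of the 6 genes with the largest rises and of 5 of the 6 with the largest falls (mean of at least 10 CPM) in each library, with circles for replicate 2, crosses for the std library and triangles for replicate 3, blue for pBabe-vector and red for pBabe-GNA13, on linear axes from 0. In both lines the triangles lie above the circles for the first 6 genes and below them for the last 5, with ID1 between 1.04 and 55.7 CPM and GDF15 between 228 and 1879 CPM in replicates 2 and 3.

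Genes of DNA replication and of mitosis were higher in replicate 3 almost without exception. All 50 genes of the G1/S and DNA replication list were tested, 49 rose and 0 fell, with a median log2 difference of 1.20 (quartiles 0.97 and 1.36) against −0.00 over all genes. The medians within the lines were 1.16 in pBabe-vector and 1.21 in pBabe-GNA13. The member that was not called, CCND1, which encodes cyclin D1, was at 333, 318, 322 and 356 CPM in the order pBabe-vector 2, 3 and pBabe-GNA13 2, 3 (0.04 ± 0.06, edgeR adjusted p = 0.629), and it was named after its value was seen. FEN1, the flap endonuclease of Okazaki fragment maturation, went from 71.6 to 204 CPM in pBabe-vector and from 66.7 to 196 CPM in pBabe-GNA13 (1.53 ± 0.06, edgeR adjusted p = 4.35e-07). MCM5 and MCM4, subunits of the replicative helicase, went the same way. MCM5 was at 74.1 and 207 CPM and at 66.6 and 183 CPM (1.47 ± 0.06, edgeR adjusted p = 5.34e-07), and MCM4 at 155 and 388 CPM and at 139 and 368 CPM (1.36 ± 0.06, edgeR adjusted p = 5.51e-07).

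Of the 50 genes of the mitosis and G2/M list all 50 were tested and all 50 rose, with a median log2 difference of 1.00 (quartiles 0.80 and 1.16) and a range from 0.52 to 1.41. BIRC5, which encodes survivin of the chromosomal passenger complex, went from 80.7 to 219 CPM in pBabe-vector and from 75.8 to 197 CPM in pBabe-GNA13 (1.41 ± 0.06, edgeR adjusted p = 5.51e-07). CDK1, the kinase that drives entry into mitosis, went from 135 to 339 CPM and from 110 to 305 CPM (1.39 ± 0.06, edgeR adjusted p = 5.91e-07). SPC24, a subunit of the NDC80 kinetochore complex, went from 50.02 to 117 CPM and from 42.7 to 104 CPM (1.26 ± 0.06, edgeR adjusted p = 6.14e-07). The replicates did not overlap in these genes, which largely follows from their choice by smallest p. Between the lines, pBabe-GNA13 was lower for CDK1 (log2 difference −0.22, edgeR adjusted p = 0.0338) and SPC24 (−0.19, edgeR adjusted p = 0.0429). BIRC5 was not called between the lines (−0.13, edgeR adjusted p = 0.170). Unlike the mitosis list, the 22 replication-dependent histone genes tested showed no shared direction. Of them 4 were higher, 8 lower and 10 not called, against 25.3% higher and 24.6% lower over all genes tested. The median of the histone genes was −0.02, which ran from −0.20 to 0.06 with 1 library left out. HIST2H2BE fell from 78.6 to 36.8 CPM in pBabe-vector and from 89.7 to 41.9 CPM in pBabe-GNA13 (−1.10 ± 0.05, edgeR adjusted p = 8.54e-07), and HIST1H3E from 10.6 to 5.56 CPM and from 12.8 to 5.84 CPM (−1.03 ± 0.13, edgeR adjusted p = 0.000148). HIST1H2BJ rose from 1.15 to 5.84 CPM and from 1.77 to 6.13 CPM (2.04 ± 0.21, edgeR adjusted p = 4.84e-05). These histone genes have near-identical copies, and most of their mRNA lacks a poly(A) tail, so that their counts are uncertain.

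Because members of these lists moved together, the bases upstream of their start sites were read from RefSeq (GRCh38.p14). The 250 bases before each start were searched on both strands for TTTCGCGC or TTTGGCGC, the letters of the E2F element, and for TTTGAA, the letters of the cell cycle homology region (CHR) bound by DREAM. An E2F match stood before 7 of 40 G1/S genes with an entry (17.5%), 1 of 43 mitosis genes (2.33%), 169 of 9785 genes tested (1.73%) and 0.996% of all 27305 promoters. A CHR match stood before 22 of the 43 mitosis genes (51.2%), 1 of the 40 G1/S genes (2.50%), 7.91% of genes tested and 13.6% of all promoters. The following windows show called members with a match, with all letters of that element's matches in capitals, 5′ to 3′ on the strand of the gene, first for E2F in G1/S genes and then for CHR in mitosis genes. They are examples from the members with a match and the smallest p.
MCM6: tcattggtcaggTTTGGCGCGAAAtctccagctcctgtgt
POLA2: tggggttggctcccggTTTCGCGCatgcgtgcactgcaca
E2F2: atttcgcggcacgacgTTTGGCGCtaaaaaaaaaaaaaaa
CDK1: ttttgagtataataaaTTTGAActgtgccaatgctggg
CDC20: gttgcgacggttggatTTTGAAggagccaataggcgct
HMMR: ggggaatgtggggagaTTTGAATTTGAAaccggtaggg
These windows lie upstream of the annotated start, at chr2:135876506-135876545 (minus strand) for MCM6, chr11:65261893-65261932 (plus) for POLA2, chr1:23531252-23531291 (minus) for E2F2, chr10:60778154-60778191 (plus) for CDK1, chr1:43358900-43358937 (plus) for CDC20 and chr5:163460588-163460625 (plus) for HMMR. MCM6 holds a match of each E2F form, which overlap, and HMMR holds a pair of CHR matches side by side. The match at the centre of each window begins 86, 53 and 42 bases before the start of MCM6, POLA2 and E2F2, and 161, 65 and 28 bases before that of CDK1, CDC20 and HMMR. The log2 differences of these genes were 1.28, 1.23 and 1.65 for MCM6, a helicase subunit, POLA2, a subunit of DNA polymerase alpha, and E2F2, and 1.39, 1.41 and 1.01 for CDK1, CDC20, an activator of the anaphase-promoting complex, and HMMR, a spindle protein. The CCAAT box, which overlaps none of these letters, stood before 52.5% of the G1/S genes, 76.7% of the mitosis genes and 35.7% of genes tested. It also stood before 61.5% of the genes of the ATF4 list, which were lower in replicate 3, and 26.3% of the heat shock genes. A match of letters is a description and no site of binding.

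Genes of ribosome assembly and protein folding were also higher in replicate 3, by less. Over all genes tested 25.3% were called higher and 24.6% lower. Of 42 genes of the list for MYC, ribosome biogenesis and the nucleolus, 34 rose and 1 fell, with a median log2 difference of 0.47. UTP20 and UTP4, of the small-subunit processome, and LYAR, a nucleolar protein, had the smallest p. UTP20 went from 40.0 to 80.4 CPM in pBabe-vector and from 44.6 to 87.3 CPM in pBabe-GNA13 (0.99 ± 0.05, edgeR adjusted p = 1.40e-06), and LYAR from 28.4 to 54.5 CPM and from 24.8 to 53.4 CPM (1.02 ± 0.07, edgeR adjusted p = 4.05e-06). UTP4 went from 49.99 to 99.4 CPM and from 49.5 to 85.2 CPM (0.89 ± 0.06, edgeR adjusted p = 5.17e-06). The member that fell was MYC itself, at 300 and 210 CPM in pBabe-vector and at 326 and 236 CPM in pBabe-GNA13 (−0.49 ± 0.05, edgeR adjusted p = 7.74e-05), named after its value was seen. Of 22 heat shock genes tested 15 rose and 1 fell, with a median of 0.43, and of 0.32 with a correction for GC content and transcript length. HSPH1, a large HSP110 chaperone, went from 157 to 283 CPM and from 156 to 241 CPM (0.74 ± 0.07, edgeR adjusted p = 2.18e-05). HSP90AA1, the inducible cytosolic HSP90, went from 1205 to 1782 CPM and from 1208 to 1800 CPM (0.57 ± 0.06, edgeR adjusted p = 4.27e-05), and its activator AHSA1 from 163 to 244 CPM and from 164 to 237 CPM (0.55 ± 0.06, edgeR adjusted p = 4.18e-05). The heat shock member that fell was CRYAB, a small heat shock protein, which was near 1 to 4 CPM in all 4 libraries. Cytosolic ribosomal protein genes went the other way, with 54 of 82 lower, 4 higher and a median of −0.19. RPL10 fell from 1225 to 700 CPM and from 1021 to 680 CPM (−0.70 ± 0.07, edgeR adjusted p = 3.09e-05), RPS29 from 293 to 218 CPM and from 260 to 189 CPM (−0.44 ± 0.05, edgeR adjusted p = 0.000146), and RPL10A from 1074 to 760 CPM and from 976 to 763 CPM (−0.43 ± 0.06, edgeR adjusted p = 0.000327). Ribosomal protein genes have many processed pseudogenes, which can share their reads.

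The genes of the ATF4 and amino acid response were lower in replicate 3. Of 34 tested, 32 fell, 0 rose and 2 were not called, with a median log2 difference of −0.64 (quartiles −0.96 and −0.51), and of −0.65 in pBabe-vector and −0.63 in pBabe-GNA13. The 2 genes not called were PSPH, an enzyme of serine synthesis, at 99.3, 90.4, 87.2 and 90.8 CPM in the order pBabe-vector 2, 3 and pBabe-GNA13 2, 3, and WARS, a tryptophanyl-tRNA synthetase, at 149, 144, 125 and 127 CPM, both named after their values were seen. DDIT4, an inhibitor of mTORC1, fell from 210 to 43.2 CPM in pBabe-vector and from 180 to 50.3 CPM in pBabe-GNA13 (−2.06 ± 0.09, edgeR adjusted p = 6.48e-07). SLC7A11, the cystine importer, fell from 295 to 106 CPM and from 239 to 99.8 CPM (−1.37 ± 0.07, edgeR adjusted p = 7.76e-07). PCK2, the mitochondrial phosphoenolpyruvate carboxykinase, fell from 378 to 194 CPM and from 343 to 175 CPM (−0.97 ± 0.05, edgeR adjusted p = 1.52e-06). In all of these the replicate 3 libraries lay below both replicate 2 libraries, which largely follows from their choice by smallest p. ATF4 itself, named after its value was seen, was at 821 and 398 CPM and at 688 and 398 CPM (−0.92 ± 0.07, edgeR adjusted p = 7.83e-06). The C/EBP-ATF response element, written as TGATGNAA, stood before 4 of 26 members with an entry (15.4%), 1.26% of genes tested and 3.19% of all promoters. The windows of 3 of these genes are shown for the matched letters.
CHAC1: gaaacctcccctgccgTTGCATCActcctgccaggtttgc
ASNS: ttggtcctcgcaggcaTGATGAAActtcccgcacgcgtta
ATF3: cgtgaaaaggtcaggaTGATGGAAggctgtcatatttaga
They lie at chr15:40953246-40953285 (plus strand, match 209 bases before the start) for CHAC1, which degrades glutathione, chr7:97872453-97872492 (minus, 68 bases) for ASNS, asparagine synthetase, and chr1:212565200-212565239 (plus, 191 bases) for ATF3, a stress-induced transcription factor. The log2 differences of these genes were −1.62, −0.73 and −0.71.

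Of 23 genes in the list of endoplasmic reticulum stress 10 fell, 1 rose and 12 were not called. Over all genes tested the shares were 24.6% lower and 25.3% higher. The median of the list was −0.18, with −0.32 within pBabe-vector and 0.03 within pBabe-GNA13. The median was −0.01 without replicate 2 of pBabe-vector, −0.04 without its replicate 3 and −0.27 without replicate 3 of pBabe-GNA13. SEL1L, of the degradation pathway of the endoplasmic reticulum, went from 215 to 139 CPM and from 216 to 160 CPM (−0.53 ± 0.06, edgeR adjusted p = 0.000126), and ERN1, the stress sensor IRE1, from 64.6 to 47.8 CPM and from 76.6 to 43.3 CPM (−0.63 ± 0.08, edgeR adjusted p = 0.000233). DNAJB9, a chaperone of the lumen, went from 27.1 to 17.8 CPM and from 24.2 to 15.5 CPM (−0.63 ± 0.08, edgeR adjusted p = 0.000249).

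More genes of glycolysis and the hypoxia response fell than rose. Of 39 genes of this list 21 fell, 5 rose and 13 were not called, against 24.6% and 25.3% over all genes tested. The median log2 difference was −0.33, and −0.26 without replicate 2 of pBabe-GNA13. BNIP3 and BNIP3L, receptors for mitophagy, had some of the smallest p. BNIP3 went from 478 to 209 CPM in pBabe-vector and from 558 to 191 CPM in pBabe-GNA13 (−1.37 ± 0.08, edgeR adjusted p = 1.79e-06), and BNIP3L from 192 to 104 CPM and from 203 to 98.8 CPM (−0.96 ± 0.06, edgeR adjusted p = 3.01e-06). MXI1, a MYC antagonist, went from 67.8 to 35.4 CPM and from 71.8 to 37.3 CPM (−0.94 ± 0.06, edgeR adjusted p = 2.14e-06). The 5 that rose were PKM, LDHB, TPI1 and PFKL, which are glycolytic enzymes, and CA12, a carbonic anhydrase, with log2 differences of 0.27, 0.25, 0.22, 0.20 and 0.29, and they were named after their values were seen. TXNIP, which limits glucose uptake and also stands in the FOXO list, went from 224 to 112 CPM in pBabe-vector and from 19.3 to 138 CPM in pBabe-GNA13 (0.75 ± 0.69, edgeR adjusted p = 0.396). It was named after its values were seen, and replicate 2 of pBabe-GNA13 was the library that stood apart.

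Genes that androgen induces were mostly lower in replicate 3. Of 29 tested 19 fell, 4 rose and 6 were not called, against 24.6% and 25.3% over all genes tested. The median log2 difference was −0.40. It was −0.31 without replicate 2 of pBabe-GNA13 and −0.28 without its replicate 3. TMPRSS2, a membrane serine protease, went from 944 to 407 CPM in pBabe-vector and from 1084 to 449 CPM in pBabe-GNA13 (−1.24 ± 0.06, edgeR adjusted p = 6.48e-07). KLK2, a kallikrein, went from 166 to 81.7 CPM and from 367 to 167 CPM (−1.08 ± 0.06, edgeR adjusted p = 1.15e-06), and ACPP, prostatic acid phosphatase, from 43.3 to 22.1 CPM and from 63.8 to 27.2 CPM (−1.10 ± 0.08, edgeR adjusted p = 4.92e-06). KLK2 also differed between the lines (log2 difference 1.09 for pBabe-GNA13 minus pBabe-vector, edgeR adjusted p = 1.31e-05), so that its replicate 3 level in pBabe-GNA13 was close to that of replicate 2 in pBabe-vector. The 4 members that rose were FKBP5, ELL2, ODC1 and ZBTB10, with log2 differences of 0.77, 0.39, 0.26 and 0.29, named after their values were seen. FKBP5, a co-chaperone of steroid receptors, was at 104, 187, 116 and 188 CPM in the order pBabe-vector 2, 3 and pBabe-GNA13 2, 3. Of the 12 luminal markers 7 fell, 0 rose and 5 were not called. The summed luminal level was 9007 and 10080 CPM in replicate 2 and 6109 and 7089 CPM in replicate 3, and KLK3, which encodes prostate-specific antigen, made up much of it at 3686 and 4149 CPM in replicate 2 and 1801 and 2408 CPM in replicate 3. The keratins KRT8 and KRT18 and the factor HOXB13 were among the 5 not called. Genes that androgen represses split 3 higher, 3 lower and 3 not called. CAMK2N1 fell from 201 to 106 CPM and from 285 to 166 CPM (−0.85 ± 0.06, edgeR adjusted p = 4.92e-06), BCHE from 95.0 to 36.4 CPM and from 159 to 83.8 CPM (−1.14 ± 0.09, edgeR adjusted p = 1.47e-05), and OPRK1 rose from 3.77 to 6.57 CPM and from 9.94 to 21.3 CPM (0.98 ± 0.13, edgeR adjusted p = 0.000195).

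Of 29 genes of the FOXO and insulin list 17 fell, none was called higher and 12 were not called, TXNIP among them, with a median log2 difference of −0.34. CCNG2, a cyclin of quiescent cells, went from 157 to 52.4 CPM in pBabe-vector and from 188 to 64.0 CPM in pBabe-GNA13 (−1.57 ± 0.06, edgeR adjusted p = 4.08e-07). ERBB2, a receptor tyrosine kinase, went from 258 to 151 CPM and from 255 to 162 CPM (−0.71 ± 0.06, edgeR adjusted p = 1.32e-05), and HBP1, a repressor of cell cycle genes, from 29.1 to 15.1 CPM and from 36.2 to 16.1 CPM (−1.06 ± 0.09, edgeR adjusted p = 1.43e-05). Immediate early genes fell in 10 of 26 cases and rose in 4, against 24.6% and 25.3% over all genes tested. Their median was −0.27, and it was −0.15 without replicate 2 of pBabe-GNA13. KLF4, a Kruppel-like factor, went from 15.6 to 5.20 CPM and from 33.1 to 10.7 CPM (−1.61 ± 0.10, edgeR adjusted p = 2.42e-06), DUSP4, a MAP kinase phosphatase, from 129 to 73.7 CPM and from 186 to 90.4 CPM (−0.93 ± 0.07, edgeR adjusted p = 6.52e-06), and JUND, an AP-1 subunit, from 179 to 120 CPM and from 235 to 147 CPM (−0.62 ± 0.06, edgeR adjusted p = 2.65e-05). Among 29 p53 targets 11 fell and 6 rose, against the same shares over all genes tested, with a median of −0.13. GDF15, described above, had the smallest p of them. TP53INP1, a regulator of autophagy, went from 319 to 167 CPM and from 259 to 137 CPM (−0.93 ± 0.05, edgeR adjusted p = 1.85e-06), and BBC3, which encodes PUMA, from 16.2 to 4.83 CPM and from 21.2 to 7.93 CPM (−1.57 ± 0.12, edgeR adjusted p = 9.33e-06). Lysosome and autophagy genes fell in 18 of 36 cases and rose in 7, against 24.6% and 25.3% over all genes tested. CTSD, cathepsin D, went from 93.8 to 62.6 CPM and from 78.0 to 50.8 CPM (−0.60 ± 0.05, edgeR adjusted p = 2.00e-05), and SQSTM1, the autophagy receptor p62, from 250 to 159 CPM and from 334 to 160 CPM (−0.86 ± 0.09, edgeR adjusted p = 4.57e-05). ULK1, the kinase that starts autophagy, went from 71.2 to 50.7 CPM and from 109 to 68.3 CPM (−0.59 ± 0.06, edgeR adjusted p = 5.71e-05).

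Of 18 genes of fatty acid synthesis 9 fell, 1 rose and 8 were not called, against 24.6% and 25.3% over all genes tested. The list had a median log2 difference of −0.26. The median was −0.10 without replicate 2 of pBabe-vector and −0.16 without its replicate 3. SCD, stearoyl-CoA desaturase, went from 2972 to 1302 CPM in pBabe-vector and from 2022 to 1215 CPM in pBabe-GNA13 (−0.96 ± 0.10, edgeR adjusted p = 3.94e-05), and ME1, malic enzyme, from 175 to 92.3 CPM and from 119 to 75.2 CPM (−0.80 ± 0.07, edgeR adjusted p = 2.00e-05). The gene that rose was ELOVL1, an elongase of very long chains, from 99.6 to 161 CPM and from 80.9 to 135 CPM (0.71 ± 0.06, edgeR adjusted p = 1.10e-05). Of 24 genes of cholesterol synthesis and uptake 6 rose, 7 fell and 11 were not called, which are shares near the 25.3% and 24.6% over all genes tested. EBP, a sterol isomerase, rose from 65.2 to 118 CPM and from 57.1 to 110 CPM (0.90 ± 0.06, edgeR adjusted p = 2.73e-06), while SREBF2, the master regulator of the pathway, fell from 564 to 319 CPM and from 477 to 319 CPM (−0.70 ± 0.07, edgeR adjusted p = 3.11e-05). ACAT2, a cytosolic thiolase, rose from 52.0 to 75.2 CPM and from 40.9 to 73.4 CPM (0.69 ± 0.07, edgeR adjusted p = 6.87e-05).

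Part of the mitochondrial genes were higher in replicate 3. Of 76 nuclear-encoded subunits of the respiratory chain 32 rose and 4 fell, against 25.3% and 24.6% over all genes tested. The median log2 difference of these subunits was 0.12. NDUFA6, of complex I, went from 62.2 to 88.3 CPM in pBabe-vector and from 55.1 to 83.7 CPM in pBabe-GNA13 (0.55 ± 0.06, edgeR adjusted p = 4.14e-05), CYCS, cytochrome c, from 320 to 447 CPM and from 287 to 451 CPM (0.57 ± 0.06, edgeR adjusted p = 6.22e-05), and ATP5G1, of ATP synthase, from 105 to 143 CPM and from 75.005 to 116 CPM (0.54 ± 0.06, edgeR adjusted p = 0.000116). Of 13 genes encoded by mitochondrial DNA 8 rose and 0 fell, with a median of 0.23. MT-ND5 went from 2441 to 3198 CPM and from 2498 to 3314 CPM (0.40 ± 0.06, edgeR adjusted p = 0.000490), MT-ND6 from 693 to 896 CPM and from 719 to 971 CPM (0.40 ± 0.06, edgeR adjusted p = 0.000305), and MT-ND3 from 992 to 1195 CPM and from 1023 to 1218 CPM (0.26 ± 0.06, edgeR adjusted p = 0.00386). Without replicate 2 of pBabe-vector the median of the mitochondrially encoded genes was 0.13, and without replicate 2 of pBabe-GNA13 that of the nuclear-encoded subunits was 0.08. With a correction for GC content and transcript length the medians were 0.02 for the mitochondrially encoded genes and 0.04 for the nuclear-encoded subunits. In the lists given above with 0 members called in 1 direction by edgeR, DESeq2 and limma-trend also called 0 in that direction, and at an unadjusted p under 0.05 edgeR gave 0 in each, apart from the luminal markers, of which 1 was higher in replicate 3 at that level.

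Some lists held called members in both directions. Of 22 metallothionein and zinc transporter genes 6 rose (27.3%) and 5 fell (22.7%), near the 25.3% and 24.6% over all genes tested. SLC39A8, a zinc and manganese importer, rose from 33.9 to 93.1 CPM in pBabe-vector and from 37.7 to 124 CPM in pBabe-GNA13 (1.59 ± 0.07, edgeR adjusted p = 5.91e-07), while SLC39A10, another zinc importer, fell from 165 to 87.4 CPM and from 172 to 94.1 CPM (−0.89 ± 0.06, edgeR adjusted p = 2.78e-06) and SLC39A13 from 26.8 to 14.7 CPM and from 24.7 to 13.9 CPM (−0.85 ± 0.09, edgeR adjusted p = 4.96e-05). Of 17 genes of polyamine metabolism 6 rose (35.3%) and 7 fell (41.2%). SAT1, which acetylates polyamines for their breakdown, fell from 97.5 to 45.5 CPM and from 119 to 52.6 CPM (−1.14 ± 0.06, edgeR adjusted p = 8.24e-07), while SRM, spermidine synthase, rose from 206 to 321 CPM and from 172 to 304 CPM (0.73 ± 0.06, edgeR adjusted p = 1.62e-05) and DOHH, an enzyme of hypusine synthesis, from 30.1 to 46.8 CPM and from 29.7 to 44.8 CPM (0.62 ± 0.07, edgeR adjusted p = 5.96e-05). Of 27 interferon-stimulated genes 7 rose (25.9%) and 8 fell (29.6%), again near the shares over all genes. OAS3, an oligoadenylate synthetase, rose from 14.2 to 31.9 CPM and from 21.5 to 43.6 CPM (1.09 ± 0.08, edgeR adjusted p = 6.44e-06), while the exonuclease gene ISG20 fell from 14.7 to 4.43 CPM and from 16.8 to 4.41 CPM (−1.83 ± 0.12, edgeR adjusted p = 4.25e-06) and LGALS3BP, a secreted glycoprotein, from 19.0 to 6.39 CPM and from 13.5 to 5.50 CPM (−1.44 ± 0.12, edgeR adjusted p = 1.63e-05).

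Of 23 YAP and SRF targets 11 rose (47.8%) and 6 fell (26.1%). TAGLN2, an actin-binding transgelin, rose from 128 to 205 CPM in pBabe-vector and from 124 to 239 CPM in pBabe-GNA13 (log2 difference 0.81 ± 0.07, edgeR adjusted p = 1.76e-05). The LIM protein AJUBA fell from 51.4 to 27.1 CPM and from 40.6 to 25.9 CPM (−0.79 ± 0.08, edgeR adjusted p = 4.61e-05), and ARHGEF17, a guanine nucleotide exchange factor, from 54.0 to 33.7 CPM and from 52.8 to 36.9 CPM (−0.60 ± 0.07, edgeR adjusted p = 7.65e-05). Of 36 epithelial junction genes 14 fell and 2 rose, against 24.6% and 25.3% over all genes tested. The median of the junction genes was −0.11. It was −0.16 without replicate 3 of pBabe-vector or without replicate 2 of pBabe-GNA13. The claudin genes CLDN4 and CLDN3 were the leading members, CLDN4 at 237 and 121 CPM and at 228 and 126 CPM (−0.91 ± 0.06, edgeR adjusted p = 2.97e-06) and CLDN3 at 89.8 and 56.2 CPM and at 91.4 and 58.1 CPM (−0.66 ± 0.05, edgeR adjusted p = 1.16e-05). TJP3, a tight junction scaffold, fell from 13.7 to 5.69 CPM and from 14.2 to 5.18 CPM (−1.37 ± 0.12, edgeR adjusted p = 2.30e-05). Of 21 NRF2 targets 7 rose (33.3%) and 6 fell (28.6%), with SLC7A11 and ME1, given above, and FTL, ferritin light chain, which fell from 358 to 255 CPM and from 331 to 209 CPM (−0.58 ± 0.06, edgeR adjusted p = 6.10e-05), as the leading members. Of 12 NF-kB targets 1 rose and 3 fell, against 25.3% and 24.6% over all genes tested. Their median log2 difference was −0.15, and 0.03 with the filter at a mean of 5 CPM. NFKBIA, the inhibitor of NF-kB, rose from 45.4 to 66.7 CPM and from 44.8 to 65.4 CPM (0.55 ± 0.06, edgeR adjusted p = 4.57e-05), RELB, an NF-kB subunit, fell from 3.16 to 1.01 CPM and from 2.09 to 0.544 CPM (−1.77 ± 0.25, edgeR adjusted p = 0.000360), and TNFAIP2 fell from 5.15 to 1.71 CPM and from 4.001 to 2.06 CPM (−1.27 ± 0.22, edgeR adjusted p = 0.00106). Of 17 nuclear-retained and unadenylated RNAs 10 fell and 4 rose, with a median of −0.23, which was −0.42 without replicate 2 of pBabe-vector. NEAT1, the RNA of paraspeckles, fell from 878 to 531 CPM and from 1144 to 557 CPM (−0.88 ± 0.08, edgeR adjusted p = 1.70e-05), the antisense transcript EPB41L4A-AS1 fell from 25.6 to 11.8 CPM and from 28.2 to 12.3 CPM (−1.16 ± 0.09, edgeR adjusted p = 9.24e-06), and SNHG12, a host gene of small nucleolar RNAs, rose from 15.1 to 30.5 CPM and from 10.6 to 24.6 CPM (1.11 ± 0.09, edgeR adjusted p = 1.57e-05). Whether strand was used in counting was not found, so that reads of EPB41L4A-AS1 and of its partner cannot be told apart.

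The std libraries took a different place between the replicates for different gene groups. In both lines the std library lay between replicates 2 and 3 for 49 of 50 G1/S genes and 50 of 50 mitosis genes, against 4371 of 14012 genes tested (31.2%). For the ATF4 list it was so for 6 of 34, and the median difference of std minus replicate 2 was 0.22 in pBabe-vector and 0.11 in pBabe-GNA13, while replicate 3 minus std was −0.90 and −0.74. The std libraries thus lay near replicate 2 for the ATF4 list. For glycolysis and hypoxia the order was turned, with std minus replicate 2 at −0.30 and −0.36 and replicate 3 minus std at −0.02 and −0.01. Among mitochondrially encoded genes the std libraries lay outside the range of the replicates in both lines, with std minus replicate 2 at −1.43 and −1.81. The sources used here do not explain the tag, and these positions were not tested.

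The difference between replicates was spread evenly over the chromosomes. Over 12087 genes with a position on 23 chromosomes, the chromosome medians of the log2 difference between replicates lay between −0.05 and 0.05 (SD 0.03), whereas those between the lines lay between −0.19 on chromosome 20 and 0.31 on chromosome 12 (SD 0.09). Genes higher in replicate 3 had a median transcript GC content of 46.7% and genes lower in it 50.7%, against 47.9% over all genes with a value. The Spearman rank correlation of the difference with GC content was −0.11 in both lines, and that with transcript length −0.07 in pBabe-vector and −0.09 in pBabe-GNA13, as descriptions across 12131 genes. The part of GC content and length in the differences is given by the corrected values in the closing section.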

How the data were processed

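RNA of LNCaP cells was sequenced as paired-end reads, and the authors assessed reads with FastQC 0.11.7, mapped them to the transcriptome of Gencode 38 by STAR and summed them per gene by featureCounts. The STAR version and the strand setting of the counting are not given in the sources used here. The values the authors deposited are whole-number counts per gene symbol, with no normalization applied. All 6 columns were used and 0 were left out. The heading of the pBabe-GNA13 library tagged std does not give its replicate number unambiguously, so it was tied to its line only. Of the symbols, 22 had been turned into dates and were kept as they stand.

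Counts of the 4 libraries were normalized by TMM and fitted by edgeR 4.0.16 under R 4.3.3 (quasi-likelihood, glmQLFit followed by glmQLFTest), with line and replicate number as terms, over genes with a mean of at least 1 CPM. P-values were adjusted by Benjamini-Hochberg over all genes tested, and an adjusted p under 0.05 was a call. Because the mean runs over all 4 libraries, a gene can pass through 1 replicate alone. Differences within a line are of log2 CPM with a prior count of 2, each from 1 library a side, and errors are SE of the fit. Levels of the std libraries and summed marker levels use TMM factors of all 6 libraries. P-values set the difference between replicates against the disagreement between the lines in it, moderated across genes. They do not measure how cultures vary in general, since each line has 1 library a replicate. The replicate number is the factor compared, so it also is the block of the contrast between lines. The pairing comes from the labels, and the differences within the lines had a Pearson r of 0.81 across genes.

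The 28 gene lists (988 entries, 936 in the table, 850 tested) and 7 marker lists were written by hand and share some members, and genes and lists were chosen with earlier results of these data known. The genes named are GNA13, the 6 largest rises and 6 largest falls among called genes that averaged 10 CPM or more and moved alike in both lines, and the 3 called members of each list with the smallest p, without genes of the Y chromosome and XIST. Some genes that fall under these rules are not reported here. Others are named as chosen after their values were seen. Positions and sequences come from Gencode 44 (GRCh38) and RefSeq (GRCh38.p14), and 83.2% of symbols were matched. Alternatives were DESeq2 1.42.0, its size factors, limma 3.58.1, other filters, stricter thresholds, a fit without line, all 6 libraries, leaving out each library, and a loess correction for GC content and length (span 0.3). The fit was also run on simulated counts drawn from its own fitted means and dispersion. This checks the code and says nothing about the calls made here. Tables and figures were made with Python 3.11.15, pandas 2.3.3 and matplotlib 3.10.9.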

Additional observations from a re-analysis of the deposited data

Results flagged for a closer look

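Some results moved in opposite directions in the 2 lines between replicate 2 and replicate 3, and these differences between the lines were not tested, since each line has 1 library a replicate. The median of the cholesterol list was −0.10 in pBabe-vector and 0.16 in pBabe-GNA13, that of endoplasmic reticulum stress −0.32 and 0.025, and that of androgen repressed genes −0.38 and 0.15. For replication-dependent histones the medians were 0.10 and −0.19, for interferon-stimulated genes −0.016 and 0.034, and for secreted matrix and TGF-beta response genes −0.16 and 0.0087. Among single genes, TXNIP had a log2 difference of −1.004 in pBabe-vector and 2.84 in pBabe-GNA13, and UAP1L1 one of 0.0052 and −0.63. CCND1 was at −0.064 and 0.14, PSPH at −0.13 and 0.058, and WARS at −0.047 and 0.021.

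The std libraries, which are on neither side of the comparison of replicate 3 with replicate 2, also held transcripts of other cell types. TRBC1 had 862 counts and TRBC2 1211 counts in the std library of pBabe-GNA13, and 1 count each in that of pBabe-vector. HBB had 1131 and 128 counts, and COL1A2, a collagen chain of fibroblasts, 96 and 2 counts. Replicate 3 of pBabe-GNA13 held 945 counts of TRBC1, 1322 of TRBC2, 1152 of HBB and 87 of COL1A2, and both replicate 2 libraries held 0 counts of each. Within each line, then, the std library and replicate 3 held these transcripts at like counts. No cause was tested.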

How the results depend on the processing

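The counts of genes called between replicates were 6996 in all, 3547 higher and 3449 lower. Leaving out genes near 0 in 1 replicate takes away only their own calls. The counts stayed within 1.5 times under DESeq2 size factors, no filter, a filter at 5 CPM and limma-trend. They also did so with all 6 libraries, an adjusted p under 0.01, and the correction for GC content and length. They were lower with DESeq2 (4453 in all, 2314 higher and 2139 lower), without a line term (2663, 1468 and 1195), and with glmTreat against a fold change of 1.5 (943, 440 and 503). With 1 library left out in the fit of 6 libraries, 4910 to 6143 genes were called in all, 2481 to 3179 higher and 2429 to 2964 lower. In such a fit the lone library is assumed to vary like the others. The contrast between the lines gave 2185 genes with the replicate number as a block and 0 without the block by the same edgeR test (490 at an unadjusted p under 0.05), and the cause was not tested. Of 91 named genes other than GNA13, 80 kept their call under every alternative that could test them, and none changed direction. Without a line term 11 lost it. MT-ND3 lost it also with the correction for GC content and length (0.02, edgeR adjusted p = 0.742) and without replicate 3 of pBabe-GNA13 (0.23, edgeR adjusted p = 0.0718), and GNA13 lost its call in 5 alternatives. Medians of the lists kept their sign under all alternatives for 21 of 28 lists, and the other 7 had a median of at most 0.148 in size. Levels near 1 CPM rest on few counts a library, which limits small differences of such genes.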
